A study of Homo sapiens with 10 samples.

Results

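ZMYND8, its paralogue ZMYND11 and the zinc finger proteins ZNF592, ZNF687 and ZNF532, which associate with ZMYND8 in the Z3 assembly, were taken by name as 5 genes of the 20098 protein-coding genes annotated on the autosomes and chromosome X. ZMYND8 and ZMYND11 are chromatin readers with the same order of modules, a PHD finger, a bromodomain and a PWWP domain that together contact histone tails and DNA, followed toward the C terminus by a MYND zinc finger. ZMYND8 is known for binding acetylated histone tails at promoters and enhancers, whereas ZMYND11 is known as a reader of H3K36me3 in transcribed gene bodies. The Z3 proteins are multi-zinc finger factors that are found with ZMYND8 in co-regulator complexes.

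The measurements were ChIP-seq peaks of ZMYND8 in HEK293, a human embryonic kidney cell line, and the comparison asked where ZMYND8 lay on its own gene and on the genes of its close relatives. The ZMYND8 ChIP, with 2 replicates, used an antibody to ZMYND8, and its labels describe Flp-In T-REx HEK293 cells carrying 3xFLAG-ZMYND8, full length or with the N228F mutation, without saying which. The FLAG-ZMYND8 ChIP, also with 2 replicates, used a FLAG antibody in the same kind of cells with inducible full length 3xFLAG-ZMYND8 at 10 nM doxycycline. All the groups carried a transgene of the ZMYND8 gene, the chromatin was cut with micrococcal nuclease, and the H3K14ac, H3K27ac and input samples of the series are not analysed here.

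Each target had 1 deposited peak list, so no spread between replicates could be measured and no test was possible for any value below. The ZMYND8 list (from here the antibody list) held 15086 peaks with a median width of 151 bp and a maximum of 10710 bp. The FLAG-ZMYND8 list (the FLAG list) held 63690 peaks with a median of 167 bp and a maximum of 5751 bp. In each list the median was also the minimum width, shared by 53% and 54.7% of the peaks. The lists hold regions that passed the authors' threshold without any number of reads behind them. The depth is unknown, a gene without a peak may still be bound below that threshold, and a width is the extent of a region and not its height. A peak was placed at a gene start when its midpoint lay within 3 kb of the 5′ end of the gene, and in the gene body when its midpoint lay between the gene ends.

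Of the 5 genes, ZMYND8, ZNF592 and ZNF687 had a peak at the gene start in both lists, and ZMYND11 and ZNF532 had none there in either. The antibody list placed 3 peaks at these 3 starts, 1 each, beside a background of 34.1% of all protein-coding genes with a peak at the start. The FLAG list placed 8 peaks at the same 3 starts, 4 at ZMYND8 and 2 each at ZNF592 and ZNF687, where the background was 58.1%. Counted from any annotated transcript start, the antibody list still reached 3 genes, with 6 peaks, against a background of 40.2%. The FLAG list reached 4 genes, with 15 peaks, against 65%, and the gene gained was ZMYND11. In the gene bodies the antibody list had 6 peaks in 2 genes, 5 of them in ZMYND8 and 1 in ZNF687, with a background of 37.5% of genes. The FLAG list had 23 body peaks in 4 genes, 17 of them in ZMYND8 and 2 each in ZMYND11, ZNF592 and ZNF687, with a background of 64.8%. With so few genes these counts could not be separated from the backgrounds.

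**Figure D1:**
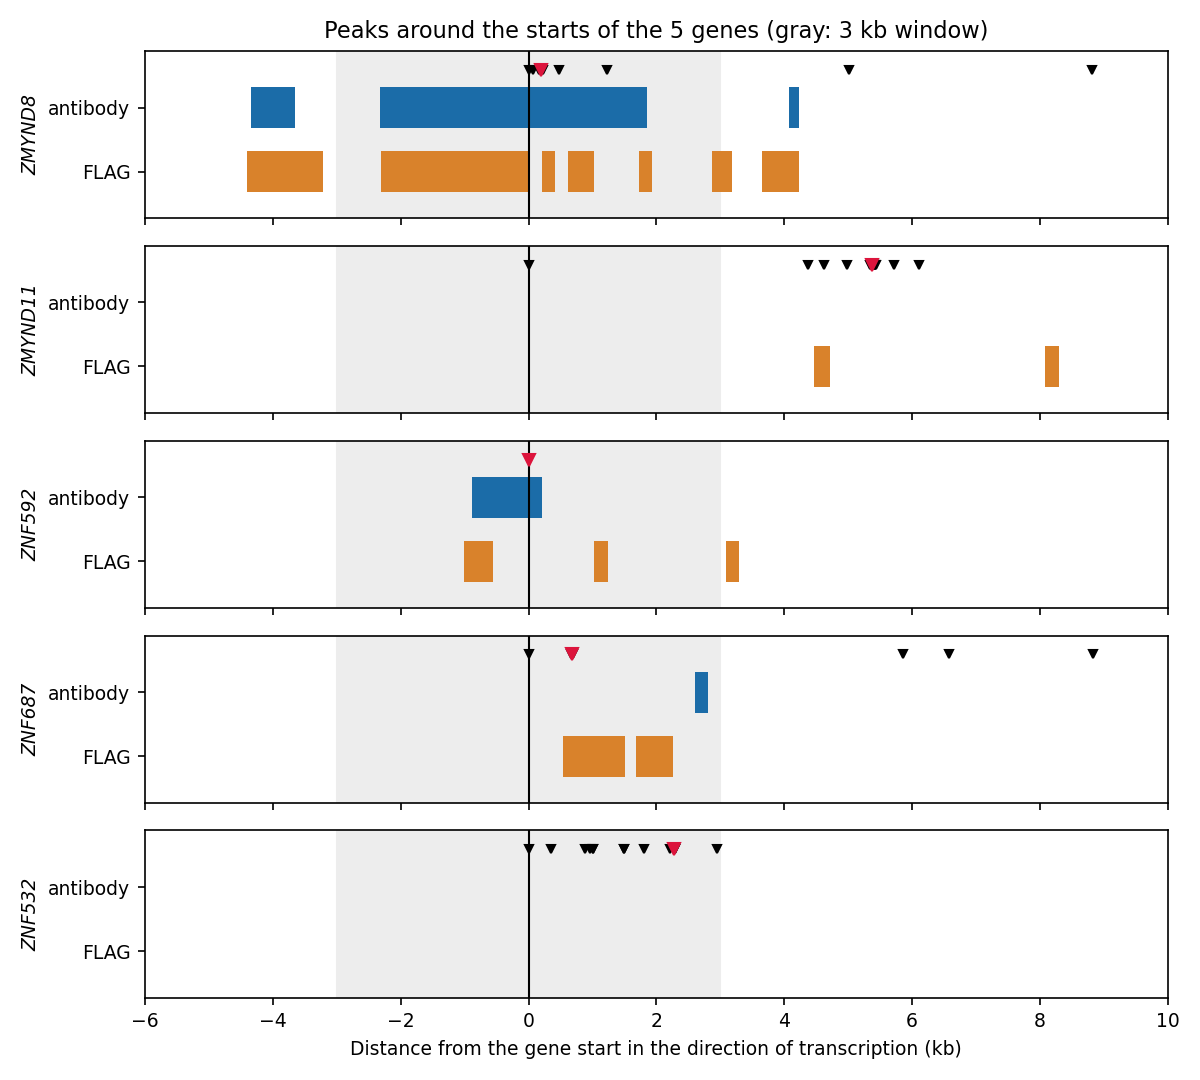
Peaks of the antibody list (blue) and of the FLAG list (orange) drawn to scale around the 5 gene starts, with distance in kb in the direction of transcription, black triangles at annotated transcript starts, a red triangle at the canonical transcript start and the 3 kb window in gray. ZMYND8 shows a block of 4174 bp across its start, ZNF592 a block of 1094 bp, ZNF687 an antibody peak 2706 bp inside the gene, ZMYND11 FLAG peaks only beyond 4 kb, and ZNF532 an empty panel.

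The ZMYND8 gene (ENSG00000101040) lies at chr20:45837859-45985633 in hg19 on the minus strand, spans 148 kb and has 13 annotated transcript starts. Its start lay inside the widest peak seen at the 5 genes, an antibody peak of 4174 bp at chr20:45983785-45987958 whose midpoint was 238 bp upstream. Peaks as wide or wider stood at the starts of 6 protein-coding genes, ZMYND8 included, which is 0.0299% of them, and the median over the 6856 genes with an antibody peak at the start was 234 bp. The peak took in 9 of the 13 transcript starts, and only 1.17% of it was coding sequence. Under it the FLAG list held 4 separate peaks, of 2328, 210, 412 and 209 bp, with midpoints 1146 bp upstream and 316, 826 and 1830 bp downstream of the gene start. These 4 covered 73.6% of the antibody peak. The FLAG peak of 2328 bp, at chr20:45985615-45987942, sat wholly within the antibody peak and met the gene only in its first 19 bases. A FLAG peak of at least this width stood at the starts of 30 genes (0.149%). The wide FLAG peak thus lay almost wholly upstream of ZMYND8, whereas the antibody peak straddled the gene start. The upstream sequence under both also holds the starts of 2 lncRNA genes. These are ENSG00000289848, on the opposite strand 1001 bp upstream, and ENSG00000289895, on the same strand 1969 bp upstream.

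The 200 bases just upstream of ZMYND8, at chr20:45985634-45985833 on the minus strand and inside the peaks of both lists, are shown with their CpG sites in capitals, since they lie under the widest peaks at the 5 genes. The sequence holds 5 CpG sites.
ZMYND8 upstream: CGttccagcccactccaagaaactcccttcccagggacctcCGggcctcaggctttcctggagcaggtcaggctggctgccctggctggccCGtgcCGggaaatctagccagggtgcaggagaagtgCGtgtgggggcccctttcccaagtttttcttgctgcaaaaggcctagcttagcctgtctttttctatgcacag
Within 500 bp of the canonical start of ZMYND8, 52.2% of bases were G or C and the observed/expected CpG ratio, the number of CpG sites over that expected from the C and G content, was 0.281. The canonical start is that of the transcript the annotation marks as representative, 190 bp inside the gene for ZMYND8. The median ratio was 0.807 over the 6112 genes with a peak of both lists at the canonical start and 0.331 over the 7147 genes with no peak there. Of the 3704 genes at or below a ratio of 0.281, 5.05% had an antibody peak at the canonical start, 15.3% a FLAG peak and 83.2% neither. The canonical start of ZMYND8 thus had a CpG ratio at which most genes lacked a peak. Over its 13 starts the ratio ran from 0.0938 to 0.429.

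Farther upstream, outside the gene and the 3 kb window, lay another pair of matching peaks. The antibody peak there was 683 bp wide, at chr20:45989288-45989970, and lay entirely inside a FLAG peak of 1179 bp at chr20:45988856-45990034. Their midpoints were 3996 and 3812 bp upstream of the gene start. Peaks of both lists therefore extended over several kilobases upstream of ZMYND8 with a gap between the blocks.

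Inside the ZMYND8 gene the antibody list had 5 peaks. As many or more were found in 148 protein-coding genes (0.736%), and in 119 of the 3660 genes longer than 100 kb (3.25%), where the median was 1. The FLAG list had 17, a count reached by 269 genes (1.34%) and by 231 of the genes longer than 100 kb (6.31%), where the median was 3. Per 100 kb of gene these were 3.38 and 11.5 peaks, values that 16.1% and 21% of all genes matched or passed. Among genes longer than 100 kb, where short genes do not raise the density, the median was 0.312 and 1.52 peaks per 100 kb. The 95th percentile there was 1.93 and 9.48, so by density ZMYND8 lay above it in both lists. By count the 95th percentile of these long genes was 4 and 18. The 5 antibody peaks lay above that value and the 17 FLAG peaks below it. Some of the body peaks were of minimum width, and without those ZMYND8 kept 3 antibody and 11 FLAG peaks in its body. Other genes were not counted without such peaks here, so these counts cannot be set beside the ranks above. An antibody peak of 151 bp at 4152 bp into the gene lay wholly inside a FLAG peak of 590 bp, and both overlapped the lncRNA genes ENSG00000231119 and ENSG00000289329. At the alternative start at position 45947805, which lies 37828 bp into the gene, an antibody peak of 335 bp covered the start and a FLAG peak of 253 bp followed after a gap of 10 bp, and both overlapped the lncRNA gene ENSG00000267882. Next to them, an antibody peak of 447 bp and a FLAG peak of 665 bp in the same intron overlapped by 141 bp. This last pair and a FLAG peak of 167 bp lay within 3 kb of the start of the annotated miRNA gene AL031666.1, and other FLAG peaks of 167 bp lay as near to the starts of ENSG00000273451, a lncRNA gene, and RN7SL243P. Peaks stood within 3 kb of 11 of the 13 starts in the antibody list and of 12 in the FLAG list. These counts include the 9 starts inside the antibody peak of 4174 bp, which all lie within 1232 bp of the gene start.

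**Figure D2:**
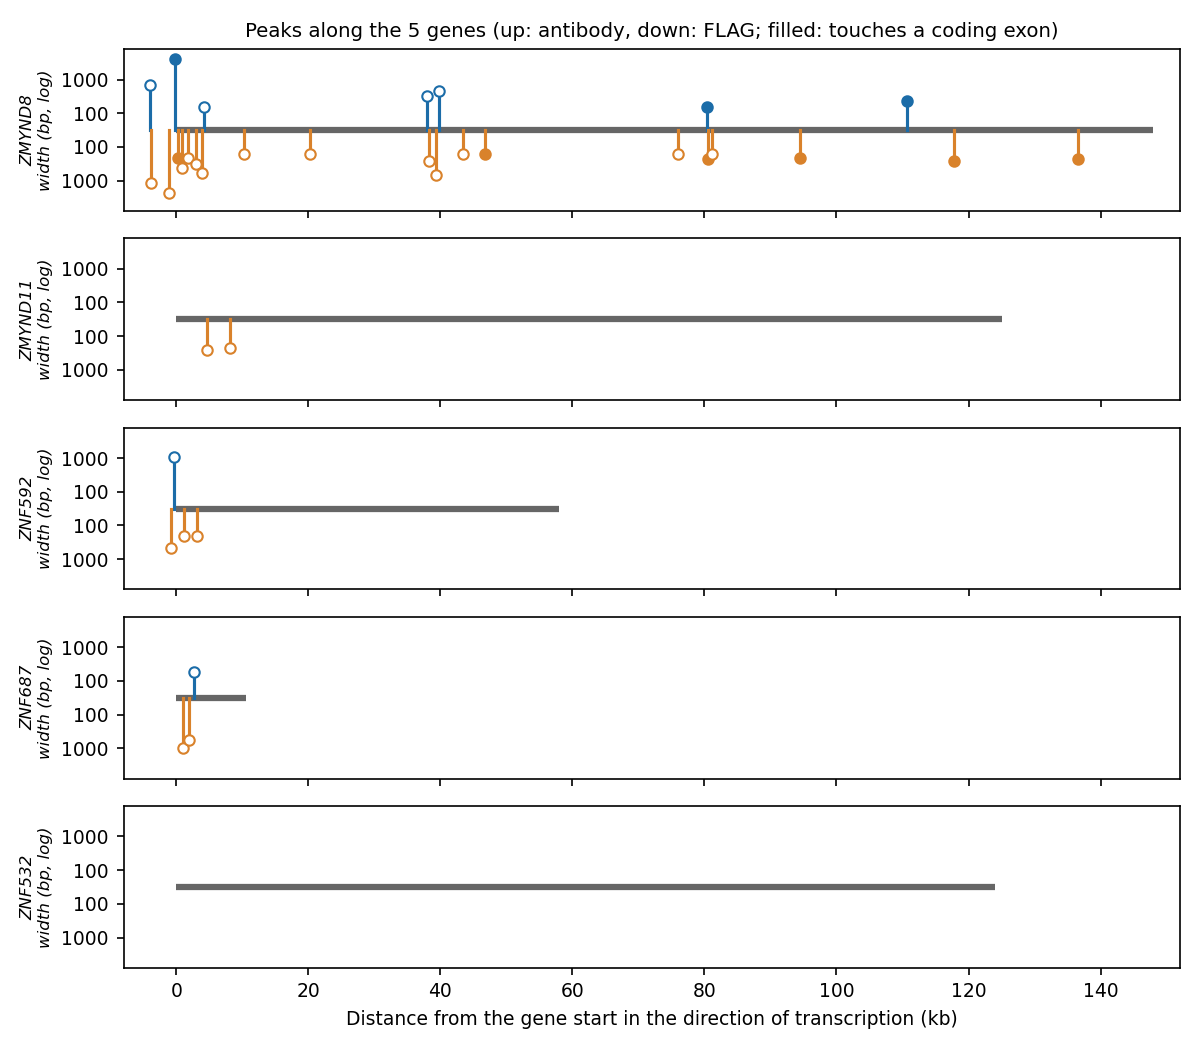
Every peak in or near the 5 genes, placed by its midpoint in kb from the gene start along the gene (gray bar), with width in bp on a log scale upward for the antibody list and downward for the FLAG list, and filled circles where a peak touches a coding exon. ZMYND8 carries 5 antibody and 17 FLAG peaks along 148 kb, while ZMYND11 and ZNF532, of 125 and 124 kb, carry 2 FLAG peaks and none.

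Some of the peaks deep in the ZMYND8 gene touched coding exons. More than 3 kb from the gene start, 2 of 5 antibody peaks (40%) and 5 of 14 FLAG peaks (35.7%) touched a coding exon, against 18.5% and 13.1% of such peaks in all other protein-coding genes. An overlap of 1 bp counted as a touch. With so few peaks the shares could not be separated from those of the other genes, and the difference was not tested. Over the canonical transcript, with 23 coding exons and 3702 coding bases, antibody peaks covered 396 coding bases (10.7%) on 3 exons and FLAG peaks 593 (16%) on 6 exons. In the antibody list exon 11 held a peak of 151 bp and exon 14 a peak of 231 bp, each lying entirely in the exon. In the FLAG list the peaks on exons 3, 12 and 15 had 78.4%, 66.8% and 86.6% of their bases in the exon, and the peak on exon 12 covered 98.6% of that exon. FLAG peaks also met exon 11 over 86 bp and exon 21 over 3 bp. None of the other 4 genes had a peak of either list on a coding exon of its canonical transcript. Their only body peaks more than 3 kb from the gene start were FLAG peaks, 2 in ZMYND11 and 1 in ZNF592. These are too few for a contrast with ZMYND8.

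The peaks on exons 12 and 11 are printed because the cells carried another source of these bases. A ZMYND8 expression construct normally holds the coding exons without the introns, and reads from the transgene and from the gene on chromosome 20 cannot be told apart over coding exons in these lists. The FLAG peak at chr20:45891034-45891241 is given on the minus strand with the 139 coding bases of exon 12 in capitals.
ZMYND8 exon 12: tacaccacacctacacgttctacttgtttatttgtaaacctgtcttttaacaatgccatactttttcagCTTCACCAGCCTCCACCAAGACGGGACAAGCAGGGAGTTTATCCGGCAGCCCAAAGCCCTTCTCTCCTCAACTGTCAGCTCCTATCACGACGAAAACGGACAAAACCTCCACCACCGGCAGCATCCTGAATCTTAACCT
The antibody peak at chr20:45905121-45905271, on the same strand, is given with the 23 bases shared with a FLAG peak in capitals.
ZMYND8 exon 11: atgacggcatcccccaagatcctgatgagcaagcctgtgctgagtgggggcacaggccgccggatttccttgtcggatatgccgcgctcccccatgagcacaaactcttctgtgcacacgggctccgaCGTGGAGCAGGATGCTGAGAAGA
The FLAG peak on exon 12 ran past the exon into 69 bases of intron, all of them upstream of the exon. The antibody peaks on exons 11 and 14 held no intron base. The FLAG peaks on exons 3, 11, 15 and 21 had 36, 149, 34 and 221 bases outside the coding part of the exon. Every FLAG peak on these exons thus also held bases outside the coding sequence, and the source of the reads was not tested.

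ZNF592 (ENSG00000166716) is a zinc finger protein of the Z3 assembly, and its gene spans 57.9 kb at chr15:85291823-85349676 on the plus strand. Its gene start, which is also the canonical start, lay inside an antibody peak of 1094 bp at chr15:85290934-85292027, centred 342 bp upstream. A peak of that width or more stood at the starts of 515 genes (2.56%). A FLAG peak of 457 bp at chr15:85290808-85291264 was centred 787 bp upstream, and the peaks shared 331 bp, which was 30.3% of the antibody peak and 72.4% of the FLAG peak. The lncRNA gene ENSG00000285667 starts 1755 bp upstream on the opposite strand, with 1 antibody and 2 FLAG peaks within 3 kb of its own start. The order of the genes by width differed between the lists. ZNF592 was above ZNF687 in the antibody list, and in the FLAG list it was below it, with 19% of all genes having a FLAG peak at least as wide as its 457 bp. Past the start the FLAG list had small peaks of 210 and 209 bp in the intron, 1136 and 3196 bp into the gene, and the antibody list had none in the gene body. The farther of these small peaks lay within 3 kb of the start of the lncRNA gene ENSG00000259415. The start at position 85291823 was the single start of the 4 annotated that had a peak within 3 kb.

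The shared stretch of ZNF592 is shown in part, as chr15:85291000-85291199 on the plus strand with CpG sites in capitals, because it is the only gene start beside that of ZMYND8 where the lists overlapped. It holds 13 CpG sites in 200 bases.
ZNF592 shared: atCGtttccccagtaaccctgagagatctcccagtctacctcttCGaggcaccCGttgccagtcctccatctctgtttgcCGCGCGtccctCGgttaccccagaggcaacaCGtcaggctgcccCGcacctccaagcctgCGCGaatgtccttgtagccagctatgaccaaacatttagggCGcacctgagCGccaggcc
The canonical start of ZNF592 was the richest of the 5 in G and C, at 81.5% within 500 bp, with an observed/expected CpG ratio of 0.873. Of the 57 genes with as much or more, 52.6% had an antibody peak and 87.7% a FLAG peak at the canonical start. The antibody peak over the start held 75% G or C, and the FLAG peak, which ended upstream of the start, held 59.7%.

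ZNF687 (ENSG00000143373), another zinc finger protein of the assembly, has the shortest gene of the 5, 10.6 kb at chr1:151254094-151264652 on the plus strand. The FLAG list had peaks of 961 and 580 bp there, centred 1026 and 1966 bp into the gene. The wider, at chr1:151254640-151255600, took in 3 transcript starts, among them the canonical start 681 bp into the gene, and 870 genes (4.33%) had a FLAG peak that wide or wider at the start. The antibody peak was a narrow region of 190 bp at chr1:151256705-151256894, centred 2706 bp into the gene and 2012 bp from the nearest transcript start, and 21.5% of genes had a wider or equal peak. It lay in an intron, 355 bp beyond the nearer FLAG peak, so the lists shared no base at ZNF687. With a window of 1 kb around the gene start ZNF687 had 0 peaks in both lists. The gene ZNF687-AS1, which is read from the opposite strand, starts 382 bp into ZNF687, and ChIP-seq peaks carry no strand, so these peaks stood at the starts of both genes. The base composition at the canonical start, 66.2% G or C with a CpG ratio of 0.7, lay beside medians of 61.2% and 0.724 over all protein-coding genes, 63.8% and 0.765 over genes with a FLAG peak alone, and 64.9% and 0.807 over genes with peaks of both lists.

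The antibody peak of ZNF687 is printed whole, on the plus strand with CpG sites in capitals, to show the composition of a peak away from the start. It holds 2 CpG sites in 190 bases, against 81 in the 961 bp of the wider FLAG peak.
ZNF687 antibody peak: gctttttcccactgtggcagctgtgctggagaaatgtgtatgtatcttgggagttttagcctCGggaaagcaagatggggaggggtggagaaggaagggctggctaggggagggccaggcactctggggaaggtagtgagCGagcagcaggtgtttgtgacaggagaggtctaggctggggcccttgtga

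**Figure D3:**
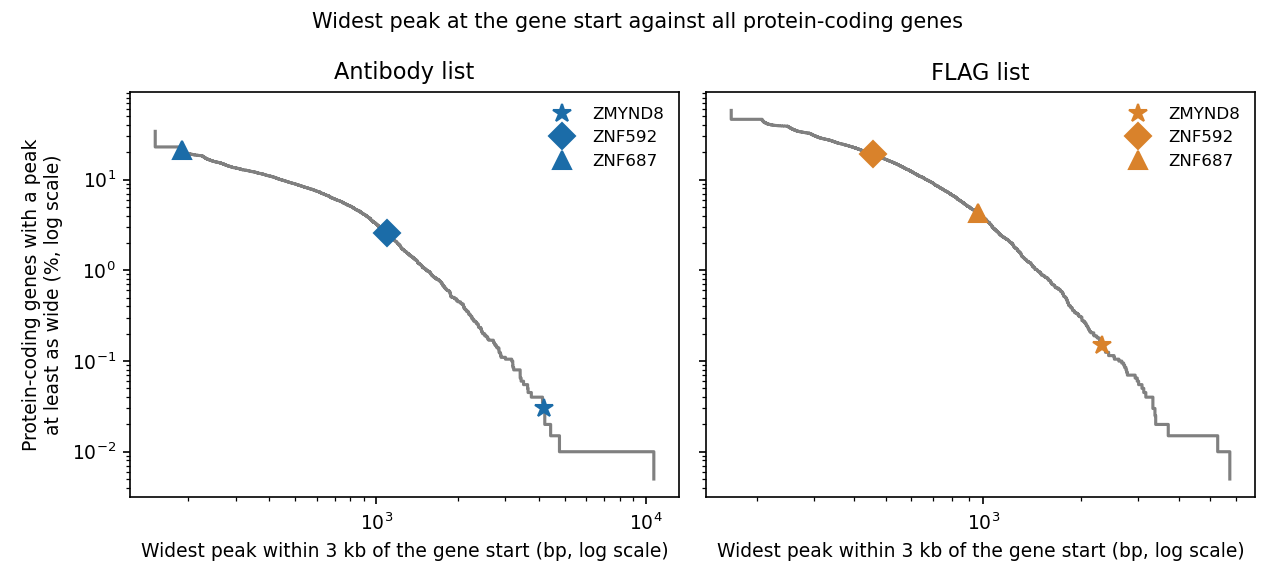
Widest peak at the gene start in bp (x axis, log scale) against the percent of protein-coding genes with a peak at least as wide (y axis, log scale), as gray curves over all genes and symbols for the genes with a peak, in the antibody list (left) and the FLAG list (right). ZMYND8 lies at 0.0299% and 0.149%, ZNF592 at 2.56% and 19%, and ZNF687 at 21.5% and 4.33%.

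ZMYND11 (ENSG00000015171), the paralogue, lies at chr10:176028-300577 on the plus strand and spans 125 kb with 22 annotated transcript starts. The antibody list had no peak at any of these starts or in the body, and its nearest peaks were 53.5 kb upstream of the gene start and 111 kb past the gene end. The FLAG list had no peak within 3 kb of the 5′ end of the gene. Only 1 transcript starts at that position, however, and the canonical start lies 5367 bp farther in. A FLAG peak of 261 bp at chr10:180489-180749 was centred 24 bp upstream of the start at position 180643, over an untranslated exon, and another of 219 bp lay in an intron, 2076 bp past the nearest start. With these, 17 of the 22 transcript starts had a FLAG peak within 3 kb. The 17 starts lie close together, between positions 180405 and 182139, and share the same 2 peaks. Both FLAG peaks were within the first 10 kb, and the rest of this long gene was empty. Its body count of 2 was reached by 66.5% of genes longer than 100 kb.

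The start of ZMYND11 was not poor in CpG sites. Within 500 bp of the canonical start 80.2% of bases were G or C and the CpG ratio was 0.98. Of the 104 genes with as much G or C or more, 49% had an antibody peak at the canonical start, 84.6% a FLAG peak and 10.6% neither. ZMYND11 was thus among the genes of this kind with a FLAG peak and without an antibody peak. Most of the sequence of the intronic FLAG peak recurs in the genome. Of the 24-base words in it, 35.2% occurred once in hg19, and a word had a median of 7 copies and at most 29129.

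ZNF532 (ENSG00000074657), the remaining zinc finger protein of the assembly, lies at chr18:56529832-56653712 on the plus strand, spans 124 kb and has 25 annotated transcript starts. It had no peak of either list at any start or in the body. The nearest antibody peaks were 77.1 kb upstream of the start and 153 kb past the end of the gene, the latter centred 66 bp from the start of SEC11C. The nearest FLAG peaks were 20 kb upstream and 76.4 kb past the end. Of the 3660 genes longer than 100 kb, 453 (12.4%) likewise had no peak of either list in the body or in the 3 kb upstream. At the canonical start of ZNF532 50.5% of bases were G or C and the CpG ratio was 0.243. Of the 3000 genes at or below that ratio 4.53% had an antibody peak there, 13.5% a FLAG peak and 85% neither. Across the 25 starts the ratio ran from 0.193 to 0.911, so some of the starts without a peak were rich in CpG sites.

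From 250 bases before to 50 after the canonical starts, on both strands, the GC box letters GGGCGG occurred 4 times each in ZMYND11 and ZNF592, 1 time each in ZMYND8 and ZNF687 and 0 times in ZNF532, and 61% of 20090 promoters held them. The CCAAT letters occurred 2 times in ZMYND8, 1 time in ZNF592, 3 times in ZNF687 and 0 times in ZMYND11 and ZNF532, and 35.9% of promoters held them. The letters TGACG of a CRE and CCGGAA of an ETS core, in 29.1% and 22.6% of promoters, were found in none of the 5. These matches describe 5 windows and no more, and ZMYND11, with 2 FLAG peaks within 3 kb of its canonical start, had no CCAAT letters there.

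**Figure D4:**
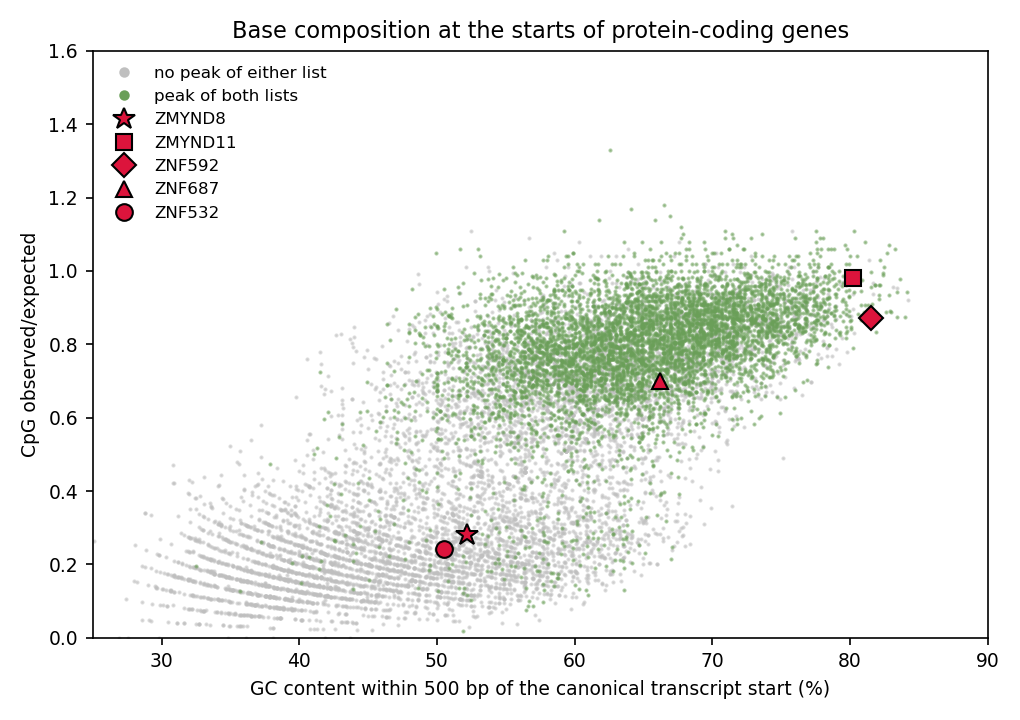
G and C content in percent (x axis) against the observed/expected CpG ratio (y axis) within 500 bp of the canonical transcript start, with gray dots for genes with no peak of either list there, green dots for genes with a peak of both lists and red symbols for the 5 genes (genes with a peak of 1 list are not drawn). ZMYND8 (52.2%, 0.281) and ZNF532 (50.5%, 0.243) sit side by side among the gray dots although ZMYND8 has peaks of both lists. ZNF687 (66.2%, 0.7), ZMYND11 (80.2%, 0.98) and ZNF592 (81.5%, 0.873) sit among the green dots, although ZMYND11 has FLAG peaks alone.

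At the gene starts and in the bodies of the 5 genes, 5 of 8 antibody peaks (62.5%) overlapped a FLAG peak by at least 1 bp, and 8 of 25 FLAG peaks (32%) overlapped an antibody peak. The antibody peak of 4174 bp at ZMYND8 alone overlapped 4 of these 8 FLAG peaks. Over the whole lists, which also hold peaks away from genes, the shares were 40% of antibody peaks and 10.7% of FLAG peaks. The sets are thus unlike, and the peaks at the 5 genes are too few to be separated from the whole lists. At ZMYND8 alone lay 4 of the 5 shared antibody peaks, and the other was at ZNF592. Without the ZMYND8 gene 1 of 2 antibody peaks and 1 of 7 FLAG peaks were shared. Where peaks overlapped they seldom had the same extent, since a reciprocal overlap of 50% left 1 shared peak in each list.

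Some FLAG peaks lay over sequence that recurs in the genome, as counted in exact 24-base words. How their reads were mapped was not examined. Of the 35 peaks at or near the 5 genes, 30 had at least 90% of their 24-base words in a single copy in hg19 and 4 had under 50%. All 4 were FLAG peaks with no antibody partner. In the ZMYND8 body they were the peaks of 167 bp at positions 45975381 and 45942116, with 0% and 0.694% single-copy words and a median of 5210 and 10412 copies. In ZNF592 it was the peak of 209 bp, with 1.08% single-copy words and a median of 320 copies, and in ZMYND11 it was the intronic peak described above. Without these 4 the FLAG body counts were 15 in ZMYND8, 1 in ZMYND11, 1 in ZNF592 and 2 in ZNF687. The part of repeated sequence in these peaks was not tested. The peaks that touched coding exons more than 3 kb into ZMYND8 had 100% single-copy words, as had the ZMYND11 peak at the untranslated exon.

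**Figure D5:**
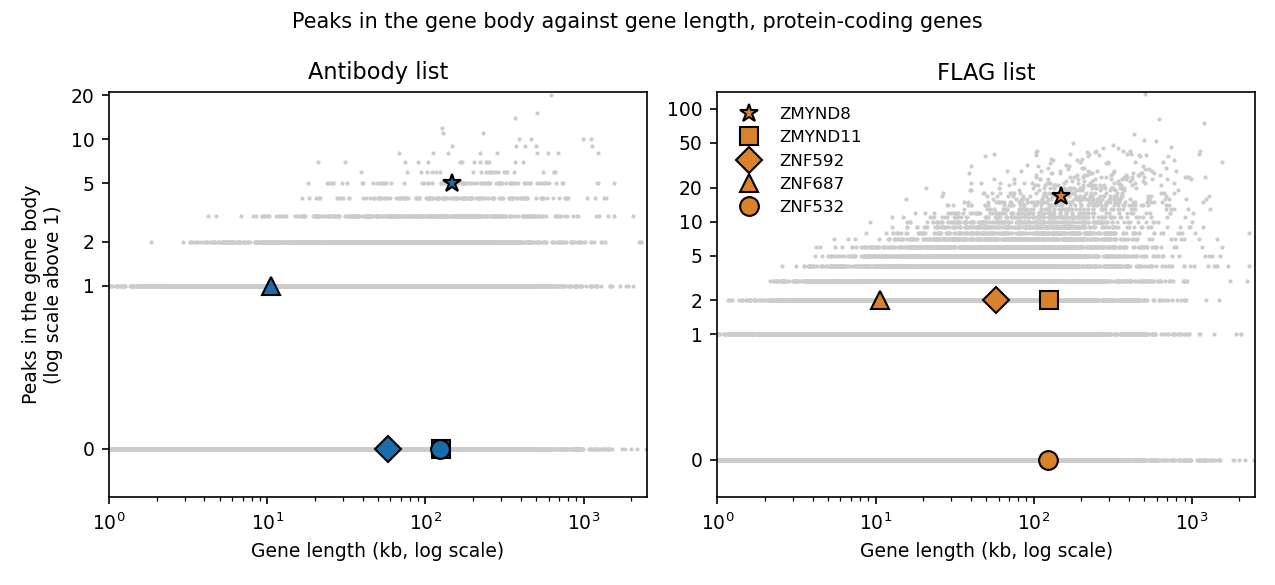
Peaks in the gene body (y axis, log scale above 1 with 0 below) against gene length in kb (x axis, log scale) for all protein-coding genes (gray dots) and the 5 genes (symbols), in the antibody list (left) and the FLAG list (right). ZMYND8, at 148 kb, has 5 and 17 peaks, whereas ZMYND11 (125 kb) and ZNF532 (124 kb), at nearly the same length, have 0 antibody peaks each and 2 and 0 FLAG peaks.

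The genes were also set beside lists of genes that share the domains of ZMYND8, all chosen by name. Of 42 bromodomain genes, 16 (38.1%) had an antibody peak at the start and 27 (64.3%) a FLAG peak, with 14 in both lists and 13 in neither. Of 22 PWWP domain genes, 13 (59.1%) had an antibody peak and 16 (72.7%) a FLAG peak. Of 22 genes with a MYND zinc finger, 9 (40.9%) had an antibody peak and 13 (59.1%) a FLAG peak. The lists hold ZMYND8 and ZMYND11 themselves, and their shares compare with the backgrounds of 34.1% and 58.1%. ZMYND8 had the widest antibody peak at the start in each list. The next widest were 1018 bp at SMARCA4, an ATPase of SWI/SNF remodelling complexes, 1876 bp at NSD3, a histone H3K36 methyltransferase, and 1272 bp at SMYD2, a lysine methyltransferase. A count of 17 or more FLAG peaks in the body was reached by 4 of the bromodomain genes, 2 of the PWWP genes and 1 of the MYND genes, ZMYND8 included each time.

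By the summed width of peaks at the gene start in both lists, on a log10 scale over these 2 values, the genes most like ZMYND8 (4174 and 3159 bp) were FOXC1 (3678 and 3328 bp), a forkhead transcription factor, and NTN3 (4781 and 2912 bp), a netrin. The genes most like ZNF592 (1094 and 667 bp) were ULK2 (1109 and 656 bp), a kinase of the autophagy pathway, and MNT (1114 and 658 bp), a repressor of the MYC network. For ZNF687 (190 and 1541 bp) they were EBF1 (189 and 1560 bp), a transcription factor of B cell development, and LRMDA (189 and 1571 bp). ZMYND11 and ZNF532, with 0 bp in both lists, tied with 7476 other genes, so no gene could be singled out as most like them.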

How the data were processed

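ChIP-seq peak lists of ZMYND8 and FLAG-ZMYND8 in HEK293 cells were analysed. Reads had been aligned by the authors to hg19 using BWA-MEM (BWA 0.7 in the submitters' processing notes) and made profiles with HOMER. Peak-calling settings and how the 2 replicates of each ChIP became 1 list are not given in the sources used here. The score column that the authors deposited is 1 in all rows, so width served as the size of a peak. Depth is unknown.

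Positions were compared with GENCODE release 44 on GRCh37 in Python 3.11.15 (numpy 2.4.6, pandas 2.3.3, pysam 0.24.0, matplotlib 3.10.9). Midpoints within 3 kb counted as at a start, and an overlap of 1 bp or more counted as shared. Windows of 1 kb and 500 bp, any transcript start, any overlap, peaks wider than the minimum and a reciprocal overlap of 50% or a distance of 200 bp were tried. Named genes were the 5 genes, neighbours whose 5′ end or body lay at their peaks, the 2 genes most like each by summed width (ties by symbol), and the 2 widest antibody peaks of each domain list. The 5 genes and the lists were chosen with earlier results of these data known. Placement and overlap were tested on simulated peaks.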

Additional observations from a re-analysis of the deposited data

How the results depend on the processing

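Of 52 recounts under other settings, 39 stayed within 1.5 times the reported count. Counted from any transcript start, the peaks at starts rose from 3 to 6 in the antibody list and from 8 to 15 in the FLAG list. With a window of 1 kb the FLAG peaks at starts numbered 3, and with 500 bp there was 1 peak at 1 gene. A reciprocal overlap of 50% left 1 shared peak in the antibody list and 1 in the FLAG list, and 3 antibody peaks were shared among peaks wider than the minimum. Further settings were chosen after seeing the data. Leaving out the ZMYND8 gene gave 4 FLAG peaks at starts, 1 antibody and 6 FLAG peaks in bodies, and 1 shared peak in each list. The ZMYND8 gene thus held most of the body peaks and of the shared peaks. At starts it held 4 of the 8 FLAG peaks and 1 of the 3 antibody peaks. The canonical start, which raised the FLAG count from 3 to 4 genes, and leaving out peaks of repeated sequence, which gave 19 FLAG peaks in bodies, kept the counts within 1.5 times. For single genes, 106 of 126 recounts stayed within that range. These include counts of 0 that stayed 0, among them every recount of ZNF532. They also include recounts of the other genes without the ZMYND8 gene, which could not change. The figure is therefore no measure of how stable the counts above 0 were. No paired analysis was possible because each target has 1 list with no replicate columns. Without depth or peak height, a lack of binding cannot be told apart from binding below the authors' threshold where a peak is absent.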

Other observations

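Peaks outside the 5 genes lay at unequal distances from them. Past the end of ZMYND11 a FLAG peak of 243 bp was centred 755 bp downstream, at chr10:301211-301453, with no antibody peak closer than 111 kb on that side. ZNF687 had its nearest antibody peaks outside the gene 91.5 kb upstream and 45.1 kb past its end, and its nearest FLAG peaks at 12.9 and 15.6 kb. Past the end of ZNF592 the nearest antibody and FLAG peaks were 13.3 and 20.3 kb away, and past the end of ZMYND8 they were 12.4 and 38.7 kb away.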
